A study of Saccharomyces cerevisiae with 10 samples.

Results

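Swc4 carrying a Myc tag was mapped on chromatin by ChIP-seq in budding yeast that lacked Yaf9 (yaf9Δ) or Eaf1 (eaf1Δ), and the peaks of the 2 strains were set against each other. All nuclear peaks of both deposited lists were taken, 4522 in yaf9Δ and 2900 in eaf1Δ, which makes 7422 of the 9305 nuclear peaks in the series. A peak counted as shared when it overlapped a peak of the other list by at least 1 bp, and otherwise as yaf9Δ-only or eaf1Δ-only. The other lists, with 1258 nuclear peaks in swr1Δ and 625 in wild type, served for reference.

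Every strain used here carried SWC4-13MYC, and the antibody was against c-Myc. Cells were grown in 50 ml of YPD, a rich glucose medium, at 30 °C to mid-log phase. Each list pools 2 repeats of a genotype, and nothing in the labels says that repeats came from separate cultures. The spread between repeats therefore cannot be given, and no test between the genotypes was possible. The samples with no tag were not analysed here, so signal that does not depend on the tag was not measured.

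Swc4 is a subunit of both SWR1, which exchanges H2A for the variant H2A.Z in nucleosomes, and NuA4, which acetylates histone tails. Yaf9, a YEATS domain protein that binds acylated histones, also belongs to both complexes. Eaf1 is the scaffold that holds NuA4 together and is not part of SWR1, whose ATPase is Swr1. In budding yeast NuA4 is known at the promoters of ribosomal protein genes, and SWR1 at nucleosomes beside nucleosome-free promoters.

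The fold of a peak is the peak caller's ratio of the pileup of fragments at the summit to the local background, as deposited by the authors. It ranks peaks within a list and is not a level that can be compared between lists. Where folds of both lists stand side by side, the reference is the 2538 overlapping pairs described further on. Of these, 59.9% had the higher fold in yaf9Δ (72.8% of the 1683 pairs of the cut lists). Their median fold was 1.88 in yaf9Δ and 1.85 in eaf1Δ, so the reference is not matched to loci of high fold. In the cut lists the share was 98.9% at tRNA genes, 87.9% at chromosome ends, 70.2% at other promoters and 69.9% in gene bodies. The median yaf9Δ folds there were 3.89, 3.27, 2.22 and 1.98. Significance is the authors' −log10 q at the summit, and ranks by significance use it. The sources used here give no read totals. The lowest local background, recovered from the peak values, was 59.6 fragments in yaf9Δ and 64.3 in eaf1Δ. Median peak width was 366 bp in yaf9Δ and 449.5 bp in eaf1Δ, and median fold was 1.88 in yaf9Δ and 1.85 in eaf1Δ. The lowest pileup at a called summit was 83 in yaf9Δ and 93 in eaf1Δ.

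The deleted genes themselves were looked at first. No list had a peak over the body of YAF9, so the yaf9Δ label could not be checked in that way. Its promoter had a fold of 2.62 in yaf9Δ and 2.34 in eaf1Δ. The body of EAF1 was overlapped by a yaf9Δ peak of fold 1.96 and by no peak of the eaf1Δ, swr1Δ or wild-type lists, so it does not check the eaf1Δ label either. SWC4 had a peak over its body in both lists, with a fold of 2.22 in yaf9Δ and 2.76 in eaf1Δ, and so did SWR1, with 2.09 in yaf9Δ and 2.19 in eaf1Δ.

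Most eaf1Δ peaks recurred in yaf9Δ, and the yaf9Δ list held many more besides. Of the 4522 yaf9Δ peaks, 2730 were shared (60.4%, interval 58.9–61.8), and of the 2900 eaf1Δ peaks, 2607 were shared (89.9%, 88.7–91.0). That left 1792 yaf9Δ-only peaks and 293 eaf1Δ-only peaks. Intervals are exact Clopper-Pearson 95% intervals and cover counting error only. In base pairs, 1341 kb lay under peaks of both lists, which was 60.4% of the length covered in yaf9Δ and 80.01% of that in eaf1Δ. The lists differ in length, and a longer list meets more of a shorter one.

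With both lists cut to the 2900 nuclear peaks of highest significance, which keeps every eaf1Δ peak, 1751 yaf9Δ peaks (60.4%) and 1745 eaf1Δ peaks (60.2%) were shared. At equal length 39.6% of yaf9Δ peaks and 39.8% of eaf1Δ peaks had no counterpart in the other cut list. Against the full yaf9Δ list, 10.1% of eaf1Δ peaks had none. The cut removed yaf9Δ peaks below a −log10 q of 9.55 and kept eaf1Δ peaks down to 1.31. An eaf1Δ peak that met only a removed yaf9Δ peak counts here as not shared. The eaf1Δ shares by bin therefore depend on the cut. With each list divided by significance into 10 bins of equal size, 91.7% of the eaf1Δ peaks in the first bin were shared, against 42.4% in the last. Of the yaf9Δ peaks, 74.1% were shared in the first bin and 60.3% in the last. In the full lists the share ran over the bins between 54.0% and 70.0% in yaf9Δ and between 87.2% and 95.2% in eaf1Δ. The last eaf1Δ bin, 42.4% shared after the cut, was 91.4% shared there.

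**Figure D1:**
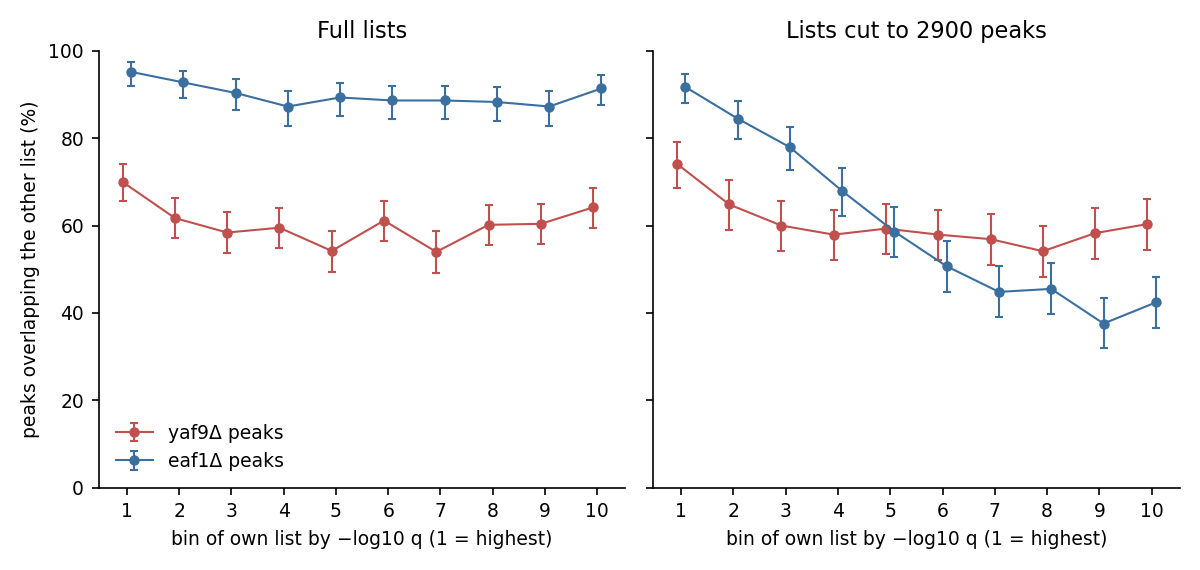
Share of peaks (%) that overlap the other list, over 10 equal bins of a peak's own list ranked by −log10 q, for yaf9Δ peaks (red) and eaf1Δ peaks (blue). Bars are exact 95% binomial intervals. In the cut lists the eaf1Δ share is 91.7% in the first bin and 42.4% in the last, against 95.2% and 91.4% in the full lists. The cut removes yaf9Δ peaks of low −log10 q and no eaf1Δ peaks.

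The overlaps were mostly broad. When at least 50% of the shorter peak had to lie in the other, 59.8% of yaf9Δ and 89.5% of eaf1Δ peaks were still shared. A yaf9Δ and an eaf1Δ peak that were each other's best overlap formed 2538 pairs, whose summits lay a median of 19 bp apart, with 69.6% within 50 bp. Most one-list peaks lay over 1 kb from any peak of the other list. A yaf9Δ-only peak lay a median of 1288 bp from the nearest eaf1Δ peak, with 386 under 500 bp, and an eaf1Δ-only peak lay a median of 1024 bp from the nearest yaf9Δ peak, with 82 under 500 bp. One-list peaks were also narrower. In yaf9Δ the median width was 270 bp for yaf9Δ-only and 455 bp for shared peaks, and in eaf1Δ it was 317 bp for eaf1Δ-only and 464 bp for shared peaks. A wider peak meets others more readily.

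By the place of the summit, the shared part of the yaf9Δ list was smallest at ribosomal protein promoters and in gene bodies. Among yaf9Δ peaks, 28 of 66 with a summit in a ribosomal protein promoter were shared (42.4%) and 1893 of 3396 in other gene bodies (55.7%). At tRNA genes it was 87 of 124 (70.2%), at other promoters 521 of 681 (76.5%) and within 10 kb of a chromosome end 61 of 72 (84.7%). Among eaf1Δ peaks all 84 at tRNA genes and all 23 at ribosomal protein promoters were shared. Gene bodies gave 203 of the 293 eaf1Δ-only peaks, other promoters 63, chromosome ends 9 and other places 18. Chromosome I, the shortest, had 79.3% of its 82 yaf9Δ peaks and 79.2% of its 72 eaf1Δ peaks shared, and over all chromosomes the share ran from 54.3% to 79.3% in yaf9Δ and from 79.2% to 94.0% in eaf1Δ.

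Shared peaks of high significance lay in the rDNA, near chromosome ends and at a few single genes. The first in both lists was the rDNA peak on chromosome XII, at 459496–460833 with a fold of 4.28 in yaf9Δ and at 459499–460824 with 3.09 in eaf1Δ. The second in both lay beside YHR219W, close to the end of the right arm of chromosome VIII, with a fold of 6.95 in yaf9Δ and 4.07 in eaf1Δ. The left end of chromosome III was the third in both, with 5.07 in yaf9Δ and 3.34 in eaf1Δ. Repeated loci such as these, and tRNA genes, hold near-identical copies, and the lists do not say how reads were divided among them.

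Away from these loci, the peak at the promoter of ENV9, a gene of vacuolar morphology and lipid droplets, had the highest fold of the yaf9Δ list. It lay at 795778–797367 of chromosome XV with a fold of 13.3 in yaf9Δ, and at 795834–797329 with 5.72 in eaf1Δ. Over the small open reading frame YDR010C on chromosome IV the fold was 11.97 in yaf9Δ and 6.12 in eaf1Δ. At the promoter of TEC1, a transcription factor of filamentous growth, it was 8.55 in yaf9Δ and 5.16 in eaf1Δ. YPR064W on chromosome XVI had the highest fold of the eaf1Δ list, with 9.24 in yaf9Δ and 7.22 in eaf1Δ, and was named after its values were seen. Coordinates are copied from the peaks, and no source used here names their genome build.

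Some gene body peaks of high significance in both lists had a moderate fold over a high local background. PMA1, the plasma membrane proton pump, had a fold of 2.001 with 1744 fragments over 871 in yaf9Δ, and 2.09 with 2386 over 1139 in eaf1Δ. TEF1 and TEF2, near-identical genes of elongation factor 1A between which reads may be split, had body folds of 2.21 and 2.31 in yaf9Δ, and 2.06 and 2.32 in eaf1Δ. CCW12, a cell wall mannoprotein, had a body fold of 1.56 in yaf9Δ and 1.80 in eaf1Δ. These 4 genes were picked from the best ranked shared gene body peaks after their values were seen.

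The order of folds at shared peaks was alike in part. Over the 2538 pairs Spearman's rho of the fold was 0.553, and over the 1683 pairs of the cut lists it was 0.582. The local background beneath the same pairs ranked far more alike, with a rho of 0.936, and the pileup had 0.805. These are descriptions across peaks, which share chromatin, base composition and a peak caller. Of the 253 pairs of highest fold in each list, 10% of all pairs, 135 were the same pairs (53.4%). By place, rho was 0.791 over 87 pairs at tRNA genes, 0.729 over 56 at chromosome ends, 0.534 over 28 at ribosomal protein promoters, 0.467 over 458 at other promoters and 0.467 over 1773 in gene bodies. Without tRNA genes and ribosomal protein promoters it was 0.516.

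For reference, the yaf9Δ and swr1Δ lists gave 1192 pairs with a rho of 0.850, and the eaf1Δ and swr1Δ lists 1002 pairs with 0.671. Of the swr1Δ peaks, 98.4% had a yaf9Δ peak and 82.1% an eaf1Δ peak. A swr1Δ peak overlapped 36.6% of shared yaf9Δ peaks and 11.3% of yaf9Δ-only peaks, and it overlapped 38.6% of shared eaf1Δ peaks and 2.73% of eaf1Δ-only peaks. A wild-type peak overlapped 18.2% of shared yaf9Δ peaks, 10.9% of yaf9Δ-only peaks, 17.99% of shared eaf1Δ peaks and 5.12% of eaf1Δ-only peaks.

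**Figure D2:**
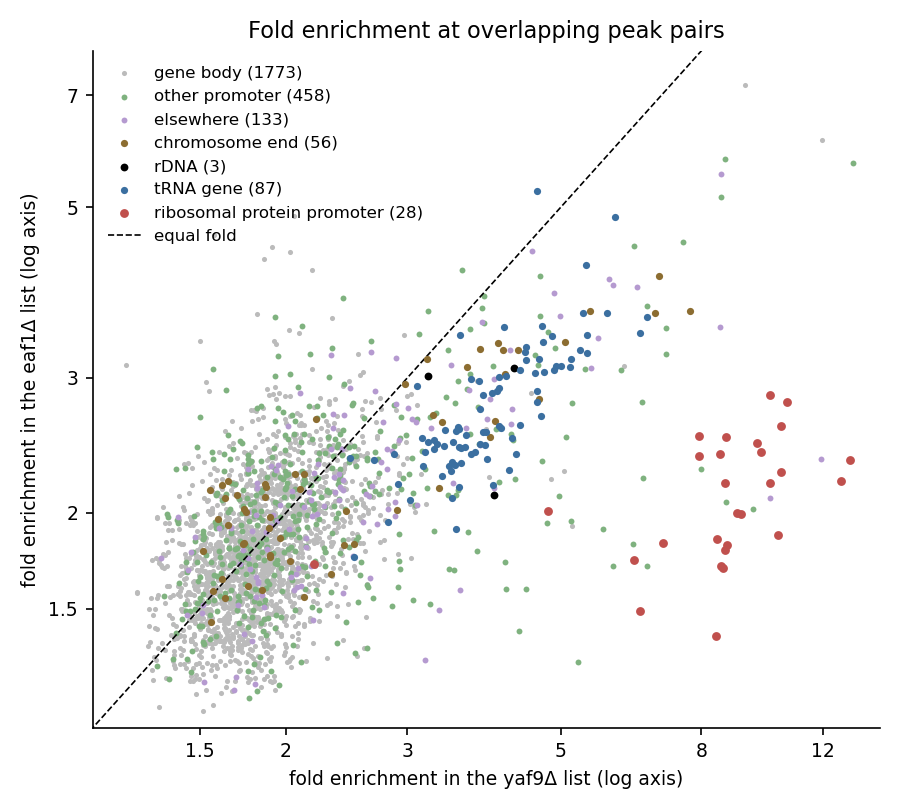
Fold enrichment of 2538 overlapping peak pairs, yaf9Δ on the x axis and eaf1Δ on the y axis (both log), coloured by the place of the yaf9Δ summit, with pair numbers in the legend. Ribosomal protein promoters lie to the lower right, with folds in yaf9Δ of a median of 8.68 against 2.10 in eaf1Δ.

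Genes for proteins of the cytosolic ribosome separated the lists at their promoters. Of 137 such promoters, taken as the 500 bp upstream of the start, 99 had a yaf9Δ peak and 33 an eaf1Δ peak. Each of the 33 also had a yaf9Δ peak, 66 had a yaf9Δ peak alone, 0 had an eaf1Δ peak alone and 38 had neither. Over all 6002 protein-coding promoters 40.5% had a yaf9Δ peak and 35.2% an eaf1Δ peak, with 10.5% in yaf9Δ alone, 5.25% in eaf1Δ alone and 30.0% in both. A locus counts as in both when each list has a peak over it, and at 1690 of the 1798 such promoters the 2 peaks read there also overlapped each other. A locus in 1 list alone can hold a shared peak, when the overlap lies outside it. That was so at 134 of the 633 promoters in yaf9Δ alone and at 156 of the 315 in eaf1Δ alone, and at 114 of the 1119 gene bodies in yaf9Δ alone and 96 of the 283 in eaf1Δ alone. With the cut lists the ribosomal protein promoters again gave 66 in yaf9Δ alone, 33 in both and 0 in eaf1Δ alone, beside 8.16% in yaf9Δ alone, 22.5% in both and 12.7% in eaf1Δ alone of all promoters. The large subunit had 39 of 81 promoters with a yaf9Δ peak alone and 17 with both, and the small subunit had 27 of 56 with a yaf9Δ peak alone and 16 with both. The 99 promoters were covered by 94 distinct yaf9Δ peaks, since divergent genes such as RPL13B and RPS16A share one.

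At RPL42B, of the large subunit, the yaf9Δ peak on chromosome VIII (382697–383253) had 700 fragments over a background of 59.6, a fold of 11.6, and the eaf1Δ list had none. RPS21B with a fold of 11.2, RPS11B with 10.5, RPS1B with 10.3 and RPS23B with 10.05, all of the small subunit, likewise had a yaf9Δ peak alone. The yaf9Δ-only peak of fold 9.06 at YGL188C-A also overlapped the promoter of RPS26A. Each of the 5 promoters named before it had a peak in swr1Δ, with folds from 7.03 to 9.88, and in wild type, with 4.74 to 7.47. Of the 66 promoters with a yaf9Δ peak alone, 59 had a swr1Δ peak and 58 a wild-type peak. For the 66 the median yaf9Δ fold was 6.75, and 50 of them had a fold of at least 3, as had 7.30% of all yaf9Δ peaks. At 9 of the 66 the yaf9Δ peak met an eaf1Δ peak outside the promoter. At RPL11A such a pair had a fold of 8.404 in yaf9Δ and 1.38 in eaf1Δ, with summits 501 bp apart.

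Where both lists had a peak at a ribosomal protein promoter, the yaf9Δ fold was at least 3 in 26 of 33 cases and the eaf1Δ fold in 0. Over the whole lists 7.30% of yaf9Δ and 4.41% of eaf1Δ peaks reached that fold. RPL13B and RPS16A had 13.1 in yaf9Δ and 2.34 in eaf1Δ, RPL6A had 12.7 in yaf9Δ and 2.20 in eaf1Δ, and RPS23A had 10.6 in yaf9Δ and 2.79 in eaf1Δ. The highest eaf1Δ fold in the group was 2.85, at RPS0B, where yaf9Δ had 10.1. Over the 33 promoters the median was 8.65 in yaf9Δ and 2.05 in eaf1Δ. The fold was higher in yaf9Δ at 32, beside 59.9% of all pairs in the full and 72.8% in the cut lists, not matched for fold. The peaks overlapped each other at all 33, and without RPS3, where summits lay 503 bp apart, it was 31 of 32. The exception was RPS9A, with 1.64 in yaf9Δ and 1.92 in eaf1Δ.

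**Figure D3:**
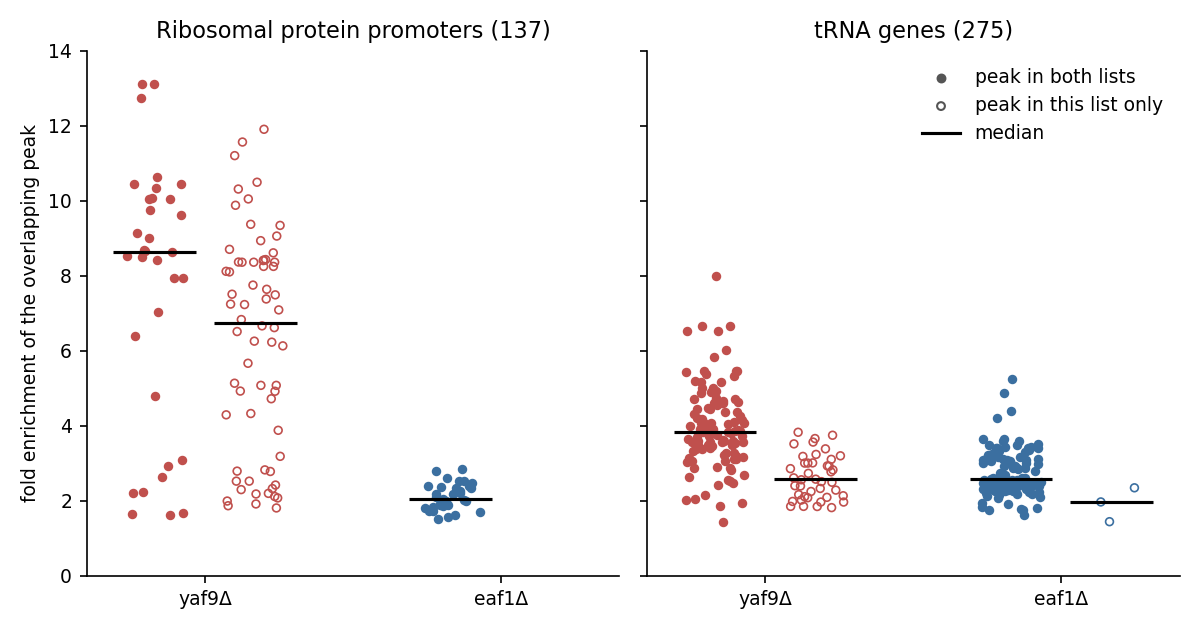
Fold of the peak with the highest fold at each ribosomal protein promoter (left) and each tRNA gene (right) in the yaf9Δ and eaf1Δ lists. Filled circles are loci with a peak in both lists, open circles loci with a peak in that list alone, and bars are medians. The eaf1Δ folds at ribosomal protein promoters reach 2.85, and those in yaf9Δ reach 13.1.

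The bodies of ribosomal protein genes held yaf9Δ summits as well. A yaf9Δ summit lay in the body of 100 of the 137 genes and an eaf1Δ summit in 12, so that 88 had yaf9Δ alone, 12 both and 0 eaf1Δ alone. Over all 6002 bodies 48.8% had a yaf9Δ summit and 34.9% an eaf1Δ summit, with 18.6% in yaf9Δ alone, 4.72% in eaf1Δ alone and 30.1% in both. With the cut lists it was 83 in yaf9Δ alone, 12 in both and 0 in eaf1Δ alone, beside 12.2% in yaf9Δ alone, 19.9% in both and 15.0% in eaf1Δ alone of all bodies. Counting folds of 2 or more only, a setting chosen after the data were seen, gave 55 with yaf9Δ alone. The 101 yaf9Δ peaks in these bodies had modest folds, with a median of 2.07 and a highest of 3.18, at RPS28B, and 13 of them were shared. The swr1Δ list had a summit in 25 of the bodies and wild type in 45. The genes are short, with a median of 771 bp, against 1200 bp for all genes.

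Among ribosome biogenesis genes, whose products process rRNA and assemble ribosomal subunits, 15 of 24 bodies had a yaf9Δ summit alone (62.5%, beside 18.6% of all bodies) and 0 had an eaf1Δ summit. The 24 genes have a median length of 1567.5 bp, against 1200 bp for all genes, and a longer body can hold more summits. Counting folds of 2 or more only left 8 of the 15. The 15 included NOP7 with a fold of 2.29, NUG1 with 2.24 and RRP5 with 2.21 in yaf9Δ. The swr1Δ list had a summit in 1 of the 24 bodies and wild type in 5. Of their promoters 4 had a peak in yaf9Δ alone (16.7%), 2 in both and 1 in eaf1Δ alone, beside 10.5% in yaf9Δ alone, 30.0% in both and 5.25% in eaf1Δ alone of all promoters. The promoter peak of UTP22, with a fold of 3.10 in yaf9Δ and 2.65 in eaf1Δ, also covers the tRNA gene YNCG0027W. Translation factor genes had 8 of 22 bodies with a yaf9Δ summit alone (36.4%), 10 with both and 0 with eaf1Δ alone. Of all bodies it was 18.6% in yaf9Δ alone, 30.1% in both and 4.72% in eaf1Δ alone. Some other lists had a like share in yaf9Δ alone, with 34.4% of 32 proteasome, 35% of 20 chaperone and 33.3% of 12 cyclin bodies. Lower shares were found in 71 mitochondrial ribosome bodies (12.7%) and 34 oxidative phosphorylation bodies (8.82%). EFT1, of a near-identical pair of genes for elongation factor 2, had a body fold of 3.19 in yaf9Δ and 2.06 in eaf1Δ. TEF2 had a promoter peak of fold 4.82 in yaf9Δ and none in eaf1Δ, while its body was shared.

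Of 71 promoters of mitochondrial ribosome genes 8 had a yaf9Δ peak alone (11.3%), 17 both (23.9%) and 9 an eaf1Δ peak alone (12.7%), beside 10.5%, 30.0% and 5.25% of all promoters. The share in yaf9Δ alone was near that of all promoters, and of the 9 peaks in eaf1Δ alone 6 met a yaf9Δ peak outside the promoter, which leaves 3. MRPL23 had a fold of 2.03 in yaf9Δ and 4.37 in eaf1Δ, and MRPL50 had 3.16 in eaf1Δ and no yaf9Δ peak. MRPL4 had 3.55 in yaf9Δ and 2.14 in eaf1Δ, at summits 1831 bp apart.

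tRNA genes, transcribed by RNA polymerase III, had folds ordered alike where both lists had a peak. Of 275 nuclear tRNA genes extended by 100 bp, 151 had a yaf9Δ peak (54.9%) and 112 an eaf1Δ peak (40.7%). Both lists had a peak at 109 (39.6%), yaf9Δ alone at 42 (15.3%) and eaf1Δ alone at 3 (1.09%). Of all protein-coding promoters, which are windows of 500 bp, it was 30.0%, 10.5% and 5.25%. With the cut lists both had a peak at 108 (39.3%), yaf9Δ alone at 39 (14.2%) and eaf1Δ alone at 4 (1.45%). Of all promoters the cut lists gave 22.5%, 8.16% and 12.7%. At the 109, Spearman's rho of the fold was 0.768, and the median was 3.83 in yaf9Δ and 2.58 in eaf1Δ. The fold was higher in yaf9Δ at 105, beside 59.9% of all pairs in the full and 72.8% in the cut lists, not matched for fold. Without 5 loci whose summits lay over 500 bp apart it was 101 of 104. SUF8 had 6.01 in yaf9Δ and 4.86 in eaf1Δ, and IMT1, of the initiator tRNA, had 5.44 in yaf9Δ and 4.21 in eaf1Δ. TRN1 was among the other 4, with 1.94 in yaf9Δ and 3.32 in eaf1Δ at summits 7 bp apart, and was named after its values were seen.

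The 42 tRNA genes with a yaf9Δ peak alone had lower folds, with a median of 2.57 and a highest of 3.82, at SUF23. A swr1Δ peak lay at 28 of them and a wild-type peak at 8, whereas of the 109 in both lists 107 had a swr1Δ peak and 54 a wild-type peak. Summits at the shared tRNA genes lay a median of 8 bp apart. The 3 with an eaf1Δ peak alone, named after their values were seen, were YNCD0019C with a fold of 1.44, YNCL0032C with 2.34 and YNCO0018W with 1.97, and all 3 lay in the promoter of a protein-coding gene. The peak at YNCO0018W met a yaf9Δ peak outside the tRNA gene. Of genes for RNA polymerase III subunits and factors, 6 of 23 promoters had peaks in both lists, 1 in yaf9Δ alone and 1 in eaf1Δ alone (26.1%, 4.35% and 4.35%), near the 30.0%, 10.5% and 5.25% of all promoters. Most of the 82 snRNA and snoRNA genes of the gene table, extended like the tRNA genes, had no peak, with 55 in neither list. A yaf9Δ peak alone lay at 16 (19.5%), peaks of both lists at 10 (12.2%) and an eaf1Δ peak alone at 1 (1.22%). In the same order it was 15.3%, 39.6% and 1.09% of tRNA genes, and 10.5%, 30.0% and 5.25% of all promoters.

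Of 20 chaperone promoters 6 had a peak in both lists, 4 in yaf9Δ alone and 1 in eaf1Δ alone, and the share in both, 30%, was that of all promoters. HSP42, a small heat shock protein, had 6.57 in yaf9Δ and 2.79 in eaf1Δ, at summits 372 bp apart. At HSP12, another small heat shock protein, the peaks did not overlap each other. The yaf9Δ peak had a fold of 4.03, and the eaf1Δ peak, 775 bp away by summit, was an eaf1Δ-only peak of fold 3.79. The promoter counted in eaf1Δ alone was that of SSA1, but its peak, of fold 3.32, is the one shared at TRN1. BTN2, a sequestrase that gathers misfolded proteins, had a promoter fold of 8.69 in yaf9Δ and 2.07 in eaf1Δ. RPN4, the activator of proteasome genes, had a yaf9Δ peak alone, with a fold of 4.83, and was named after its value was seen. Of 32 proteasome promoters 12 had a peak in both, 2 in yaf9Δ alone and 1 in eaf1Δ alone, with PRE7 at 3.87 in yaf9Δ and 3.54 in eaf1Δ. The yaf9Δ peak of fold 8.404 at PRE2 is the peak of the divergent gene RPL11A.

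Lists of cell cycle, histone and complex subunit genes are short, and their counts stand beside 30.0% of all promoters in both, 10.5% in yaf9Δ alone and 5.25% in eaf1Δ alone. With so few genes, a count of 0 in eaf1Δ alone is near that last share. Of 12 cyclin promoters 6 had a peak in both lists, 2 in yaf9Δ alone and 0 in eaf1Δ alone. CLN2, a cyclin of the start of the cell cycle, had 8.50 in yaf9Δ and 3.49 in eaf1Δ, and PCL1 had 6.12 in yaf9Δ and 3.07 in eaf1Δ. Of 10 histone promoters 5 had a peak in both, 3 in yaf9Δ alone and 0 in eaf1Δ alone. HTA2 and HTB2, divergent genes of H2A and H2B, shared a yaf9Δ peak of fold 2.44 and had no eaf1Δ peak. HTA1 and HTB1 shared one of 2.16 in yaf9Δ and 2.08 in eaf1Δ. Promoters of 14 SWR1 subunit genes divided into 7 in both, 2 in yaf9Δ alone and 3 in eaf1Δ alone, and those of 13 NuA4 subunit genes into 2 in both, 4 in yaf9Δ alone and 1 in eaf1Δ alone. Of those in eaf1Δ alone, 2 of the 3 SWR1 subunit genes, SWC4 and RVB2, and the NuA4 subunit gene had a peak that met a yaf9Δ peak outside the promoter. The peak over the promoter of VPS71, of SWR1, with 5.33 in yaf9Δ and 3.26 in eaf1Δ, has its summits at the tRNA gene SUF7.

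Some peaks stood high in the eaf1Δ list alone, or ranked higher there. HXT7, a high-affinity glucose transporter nearly identical to HXT6, headed the eaf1Δ-only peaks by fold, with 522 fragments over 112 in its body on chromosome IV (1154071–1154509), a fold of 4.64. HXK1, a hexokinase, had a body fold of 1.91 in yaf9Δ and 4.44 in eaf1Δ. Of 22 pairs with an eaf1Δ fold of at least 4, it was among 8 with the higher fold in eaf1Δ. The others lay at YLR326W, RIM4, MRPL23, TSL1, MNN1 and ERG3. In contrast, the bodies of HXK2, HXT3 and HXT2 had a yaf9Δ summit alone, with folds of 2.16, 2.24 and 1.75. These further genes were named after their values were seen. At GLK1, the glucokinase, overlapping peaks with a fold of 2.09 in yaf9Δ and 3.43 in eaf1Δ had their summits 1305 bp apart. The peak between GAL1 and GAL10, of the galactose pathway, had 2.17 in yaf9Δ and 3.22 in eaf1Δ. PGM2, a phosphoglucomutase, had an eaf1Δ-only peak of fold 2.99. Another eaf1Δ-only peak of high fold lay at the promoter of SNF12, of the SWI/SNF remodeller (3.16), and is the peak given above for MRPL50. Others lay in the bodies of NHX1, a sodium and proton exchanger (3.09), HMS1, a transcription factor of filamentous growth (3.06), and BUR2, a cyclin of transcription elongation (3.05). None of these 6 eaf1Δ-only peaks overlapped a swr1Δ or wild-type peak.

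Counts over the lists of metabolic genes stand beside the same shares of all promoters, and beside 30.1% of all bodies in both, 18.6% in yaf9Δ alone and 4.72% in eaf1Δ alone. Of 21 glycolysis and fermentation genes, 14 bodies had summits of both lists, 6 of yaf9Δ alone and 1 of eaf1Δ alone, and 7 promoters had peaks in both, 4 in yaf9Δ alone and 0 in eaf1Δ alone. PGK1, of glycolysis, was among the 4, with a fold of 3.12 in yaf9Δ. Of 18 hexose transporter promoters 5 had a peak in both, 0 in yaf9Δ alone and 2 in eaf1Δ alone, and both of these, HXT6 and HXT7, met a yaf9Δ peak outside the promoter. Their bodies gave 4 with both, 2 with yaf9Δ alone and 3 with eaf1Δ alone. In the cut lists, which keep every eaf1Δ peak, the bodies gave 1 with both, 1 with yaf9Δ alone and 6 with eaf1Δ alone. Of all bodies the cut lists gave 19.9% in both, 12.2% in yaf9Δ alone and 15.0% in eaf1Δ alone. Of 7 galactose promoters 6 had both. Of 34 oxidative phosphorylation promoters 15 had both, and the peak over that of ATP1, with 4.14 in yaf9Δ and 3.49 in eaf1Δ, has its summits at the tRNA gene YNCB0002W. Of 15 phosphate promoters 6 had both, with SPL2 at 5.18 in yaf9Δ and 1.95 in eaf1Δ at summits 1226 bp apart. Of 17 cell wall and plasma membrane promoters 12 had both. CWP2, a mannoprotein, had 6.36 in yaf9Δ and 1.82 in eaf1Δ at summits 620 bp apart, and CWP1, its relative, had 3.504 in eaf1Δ and no yaf9Δ peak. The summit of that CWP1 peak lies in the gene body, which there is also the promoter of YJU2.

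**Figure D4:**
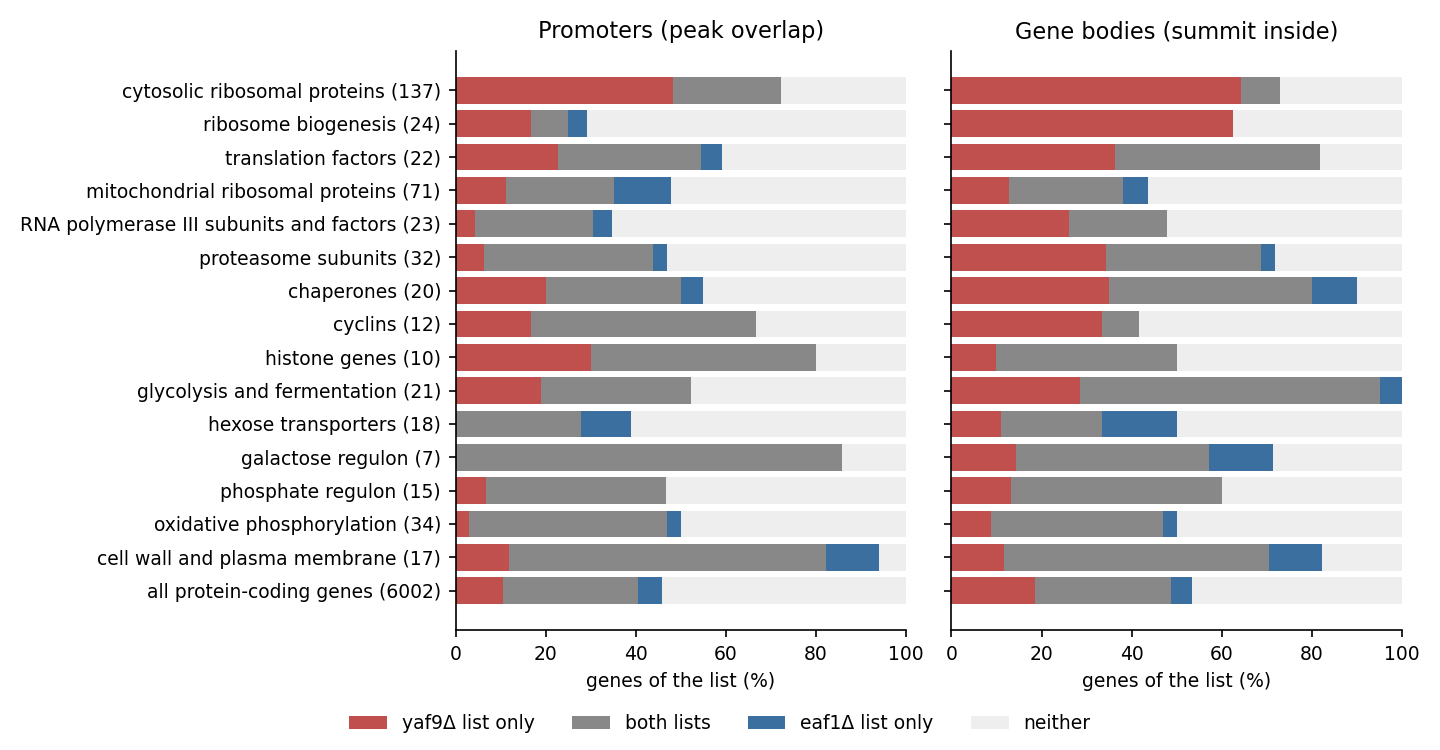
Share of the genes of each list (%, number of genes in brackets) whose promoter overlaps a peak (left) or whose body holds a summit (right), in yaf9Δ alone, both lists, eaf1Δ alone or neither. In ribosome biogenesis bodies 15 of 24 are yaf9Δ alone, against 18.6% of all bodies, not matched for gene length.

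The shared peaks that differed most in rank of fold named further genes. GAT1, a regulator of nitrogen use, stood at percentile 97.7 of fold in yaf9Δ (fold 5.30) and 2.97 in eaf1Δ (1.28), with summits 676 bp apart. CAR1, arginase, stood at 88.7 in yaf9Δ (2.54) and 3.97 in eaf1Δ (1.301), with summits 15 bp apart. In the other direction the body of SED1, a cell wall protein, stood at percentile 0.133 in yaf9Δ (1.17) and 96.7 in eaf1Δ (3.11), with summits 490 bp apart. RIM4, a meiosis gene, stood at 15.2 in yaf9Δ (1.57) and 99.7 in eaf1Δ (4.61), with summits 4 bp apart.

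Gene bodies held the bulk of both lists, and one-list summits stood differently in them. A summit lay in a gene body for 89.1% of yaf9Δ-only peaks (interval 87.5–90.5) and 81.6% of shared yaf9Δ peaks (80.1–83.0). In eaf1Δ it was 85.3% of eaf1Δ-only peaks (80.7–89.2) and 82.6% of shared eaf1Δ peaks. These shares count every summit inside a body, also those placed above at a promoter, tRNA gene or chromosome end. By that single place, gene bodies held 83.9% of yaf9Δ-only, 69.3% of shared yaf9Δ, 69.3% of eaf1Δ-only and 69.8% of shared eaf1Δ peaks. The yaf9Δ-only summits lay further along the gene. Within 500 bp of the start were 31.7% of yaf9Δ-only summits in bodies, against 49.3% of shared yaf9Δ summits, and 54.3% of eaf1Δ-only summits, against 50.7% of shared eaf1Δ summits. The first 10% of the body held 7.59% of yaf9Δ-only summits and 22.7% of eaf1Δ-only summits, against 14.7% of shared yaf9Δ and 17.5% of shared eaf1Δ summits. In the cut lists the order turned for eaf1Δ, with 17.4% of eaf1Δ-only against 18.5% of shared eaf1Δ summits, while yaf9Δ kept it, with 8.47% of yaf9Δ-only against 16.2% of shared yaf9Δ summits. The median distance from the start was 788 bp for yaf9Δ-only and 469 bp for eaf1Δ-only summits, in genes with a median length of 1665 bp and 1470 bp.

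**Figure D5:**
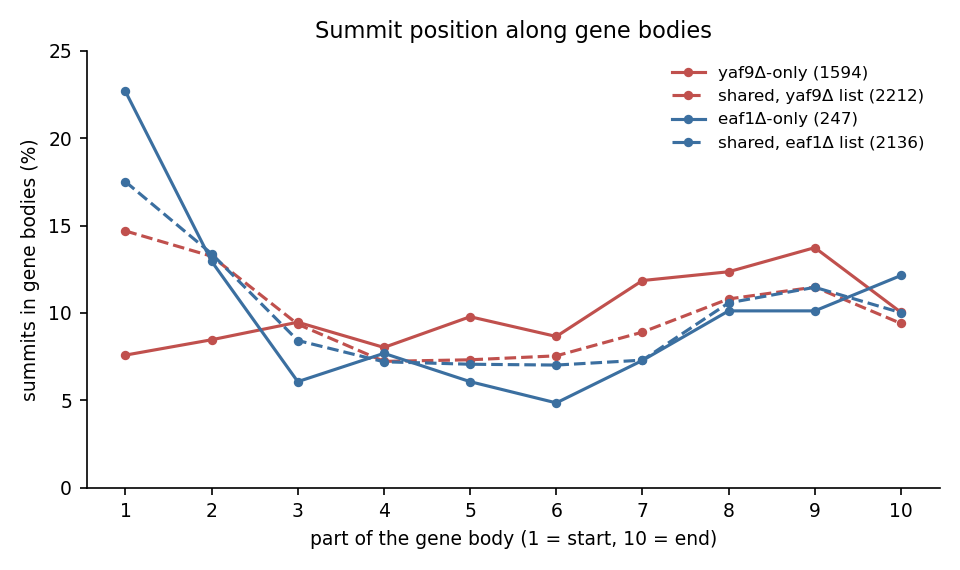
Share of gene body summits (%) in 10 equal parts of the gene body from start (1) to end (10), for yaf9Δ-only and eaf1Δ-only peaks (solid) and shared peaks of either list (dashed) of the full lists, with the number of summits in brackets. The yaf9Δ-only line starts lowest, at 7.59%, and the eaf1Δ-only line highest, at 22.7%, which is 17.4% in the cut lists.

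In the cut lists 33.0% of yaf9Δ-only summits lay within 500 bp of the start, against 49.2% of shared yaf9Δ summits, and 51.0% of eaf1Δ-only summits, against 51.2% of shared eaf1Δ summits. Counted by gene, 1809 bodies had summits of both lists, 1119 of yaf9Δ alone and 283 of eaf1Δ alone. A minority of the yaf9Δ-only gene body peaks lay in a gene that also held an eaf1Δ summit. By place it was 337 of 1503 (22.4%, interval 20.3–24.6), and over all summits in a body 352 of 1596 (22.1%). For eaf1Δ-only peaks with a yaf9Δ summit in the gene it was 49 of 203 (24.1%, 18.4–30.6) and 60 of 250 (24%). A gene with any summit had more than 1 in 25.5% of cases in yaf9Δ and 14.2% in eaf1Δ. Of summits outside gene bodies, 41.3% of yaf9Δ-only, 43.3% of shared yaf9Δ, 39.5% of eaf1Δ-only and 42.7% of shared eaf1Δ summits lay between divergent genes.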

How the data were processed

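MACS2 called the peaks, on reads trimmed by fastp 0.21.0, aligned by BWA 0.7.15-r1140 and handled by SAMtools 1.4, per the submitters' processing notes. The sources used here name no genome build, control or MACS2 setting. Per the labels, each deposited list pools both repeats of 1 tagged genotype. It gives the authors' fold enrichment (a ratio of pileup to local background), −log10 p and −log10 q at each summit.

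Mitochondrial peaks were left out. Gene names came from a gene table of assembly R64. As a check of the match, 114 of 275 tRNA genes in yaf9Δ and 76 in eaf1Δ had a summit at most 60 bp from their midpoint. Promoters were the 500 bp upstream of a gene's start. A summit took 1 place, in the order rDNA, tRNA gene (within 100 bp), chromosome end (10 kb), ribosomal protein promoter, other promoter, gene body, elsewhere. Shares of summits in gene bodies, and positions along them, instead count summits inside a body whatever their place. A locus with several peaks took the one of highest fold. Pileup and background followed from the fold and the Poisson −log10 p of each summit, and the pileup was whole within 0.05 at 99.8% of yaf9Δ and 99.6% of eaf1Δ summits. A low background can therefore be read per list, but depth in reads is unknown.

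Overlap, pairing and the pileup solution were tested on simulated data. Genotypes were not tested against each other. Python 3.11.15, numpy 2.4.6, scipy 1.17.1 and pandas 2.3.3 were used.

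Members, gene lists and thresholds were chosen with earlier results of these data known. Named genes followed a rule: YAF9, EAF1, SWC4 and SWR1, the 10 shared pairs best in both ranks, the 10 one-list peaks of highest fold per list, the 5 pairs with the largest difference in fold percentile each way, and up to 4 members per gene list. The text gives a part of these and says where a gene was named after its values were seen. Alternatives were other overlap rules, stricter peaks, merged peaks, lists without repeated loci, another ranking for the cut, and other promoter and tRNA windows.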

Additional observations from a re-analysis of the deposited data

Results flagged for a closer look

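Peaks on the mitochondrial genome lie outside the comparisons above and were flagged because they were present in the mutant lists. There were 68 among 4590 peaks in yaf9Δ, 37 among 2937 in eaf1Δ and 4 among 1262 in swr1Δ. Wild type had 0 among 625, where counting error alone allows up to 3. The lists differ in length, and the spread between repeats is not known. Of the mitochondrial peaks, 38 in yaf9Δ and 35 in eaf1Δ overlapped each other. The median fold was 2.04 in yaf9Δ and 1.77 in eaf1Δ.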

How the results depend on the processing

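Of 59 alternative values, 38 stayed within the limits set (the 95% interval of a share, 0.05 for rho, 1.5 times for a count) and 21 moved. A change of direction was not looked for, and the cause of the moves was not tested. With summits at most 100 bp apart, 45.1% of yaf9Δ and 70.4% of eaf1Δ peaks were shared (46.9% and 46.9% in the cut lists), and rho was 0.637 (0.642 in the cut lists). With −log10 q of at least 5 the shares were 54.95% and 82.5%. With fold of at least 2 they were 39.9% and 59.8%, and rho was 0.445. Without repeated loci the yaf9Δ share was 58.9%. Cutting by fold gave a rho of 0.490. Gene bodies held 78.9% of shared yaf9Δ summits at −log10 q of at least 5, 53.8% at fold of at least 2 and 75.3% in the cut lists. They held 77.8% of yaf9Δ-only summits at fold of at least 2, and 86.4% of yaf9Δ-only and 90.6% of eaf1Δ-only summits in the cut lists. Ribosomal protein promoters with a yaf9Δ peak alone ranged from 46 to 73, with 0 for eaf1Δ alone in each setting, and such tRNA genes from 39 to 47. With fold of at least 2, a setting chosen after seeing the data, ribosomal protein bodies with a yaf9Δ summit alone were 55 and ribosome biogenesis bodies 8. No paired analysis was possible because each list pools both repeats, and for the same reason no repeat could be left out.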
